A study of Rattus norvegicus with 8 samples.

Results

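Tac1, Calca, Calcb, Sst, Iapp and Nppb encode peptides that sensory neurons make and release, and their messenger RNAs were measured in rat dorsal root ganglia after a nerve injury. The 6 genes were taken by their symbols in the deposited table, which held 10771 symbols in all. They were read by 7 probes, 2 of them for Calcb, and each probe is described apart. The 4 ligation samples, titled as ipsilateral, were ganglia of Sprague Dawley rats whose spinal nerves had been ligated 7 days earlier, a model of neuropathic pain. The 4 control samples, of the same strain and day, are titled as contralateral but described as sham-operated, so operation and body side cannot be told apart. Each sample was pooled from 2 animals, and the labels give neither the age or sex of the rats nor the level of the ganglia. Each sample was labelled with Cy5 and hybridised with a Cy3-labelled pool of control ganglia, with no dye swap, on an array of its own. A value below is a log2 ratio of sample over pool unless it is called an intensity, and a log2 change is the ligation mean minus the control mean.

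Small sensory neurons of the dorsal root ganglia that respond to painful or itchy stimuli carry neuropeptides. Such peptides are made as precursors, cut by convertases in secretory granules, stored in dense-core vesicles and released both in the skin and in the spinal cord. Substance P, from Tac1, and calcitonin gene-related peptide, from Calca and Calcb, mark the peptidergic nociceptors. Somatostatin, from Sst, and the natriuretic peptide of Nppb mark a population of neurons linked to itch in mice. Iapp encodes amylin, a relative of calcitonin gene-related peptide better known from pancreatic beta cells.

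The 300 bases around the annotated start are shown for 4 of the genes. Of these, Sst, Iapp and Tac1 fell, and Calca did not pass on its dim probe. Nppb also fell, and its window was searched but is not printed. RefSeq promoter windows of the GRCr8 assembly, with 250 bases before the start and 50 after it, matched 5 of the 6 genes. Capitals mark TGACG on either strand, the core of the cyclic AMP response element bound by CREB. The windows are chr11:90461296-90461595 on the plus strand for Sst, chr4:176967847-176968146 on the plus strand for Iapp, chr4:36645333-36645632 on the plus strand for Tac1 and chr1:178317480-178317779 on the minus strand for Calca. Each is written in the direction of the gene.
Sst: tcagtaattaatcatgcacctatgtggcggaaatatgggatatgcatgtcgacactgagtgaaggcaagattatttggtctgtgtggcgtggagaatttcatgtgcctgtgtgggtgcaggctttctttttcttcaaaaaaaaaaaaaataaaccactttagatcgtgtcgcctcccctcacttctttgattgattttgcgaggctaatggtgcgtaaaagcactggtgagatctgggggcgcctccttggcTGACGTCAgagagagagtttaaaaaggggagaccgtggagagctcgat
Iapp: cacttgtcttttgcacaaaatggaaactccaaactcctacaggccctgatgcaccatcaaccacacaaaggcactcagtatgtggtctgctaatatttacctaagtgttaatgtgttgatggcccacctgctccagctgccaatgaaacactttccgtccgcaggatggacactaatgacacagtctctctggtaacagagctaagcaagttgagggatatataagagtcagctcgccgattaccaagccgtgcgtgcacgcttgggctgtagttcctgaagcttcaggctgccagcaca
Tac1: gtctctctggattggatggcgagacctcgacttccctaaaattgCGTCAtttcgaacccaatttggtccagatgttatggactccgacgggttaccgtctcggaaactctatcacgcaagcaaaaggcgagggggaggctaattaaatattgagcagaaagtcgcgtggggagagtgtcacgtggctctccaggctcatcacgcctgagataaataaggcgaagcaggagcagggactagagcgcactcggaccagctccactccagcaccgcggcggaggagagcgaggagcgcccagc
Calca: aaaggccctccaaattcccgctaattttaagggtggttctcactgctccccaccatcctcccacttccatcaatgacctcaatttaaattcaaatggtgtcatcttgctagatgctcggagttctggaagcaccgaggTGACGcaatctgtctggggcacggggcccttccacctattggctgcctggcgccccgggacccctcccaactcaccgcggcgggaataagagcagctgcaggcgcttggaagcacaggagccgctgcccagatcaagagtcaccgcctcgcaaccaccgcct

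The Sst window held the full element, TGACGTCA, at position 3 after the annotated start, a palindrome in which TGACG reads on both strands. A response element of the somatostatin promoter is a classical binding site of CREB, and whether this match is that site was not examined. The full element was in 1.83% of 33469 rat windows of this length, and TGACG on either strand was in 21.2%. TGACG was at position -112 in Calca and, on the minus strand, at position -206 in Tac1. It had no match in the windows of Iapp and Nppb. TGANTCA, the AP-1 motif (7.33% of windows), had no match in any of the 5 windows. Of the other motifs searched, CACGTG (6.42% of windows) was in Tac1 at position -72, and TATAAA (14.2% of windows) was in Nppb at position -208 on the minus strand. These matches describe letters in a window and say nothing of binding in these ganglia.

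Tac1, Calcb, Sst, Iapp and Nppb fell in the ligated ganglia, and Calca did not pass the test. All 7 probes had a value on every array, and 6 passed as lower and 0 as higher (limma, Benjamini-Hochberg adjusted p under 0.05 over all 22379 probes tested), against a background of 32.2% of all probes called lower, 26.4% called higher and 58.6% called in either direction. Each of these 6 probes fell at least 2-fold, which 3.41% of all probes did, and 3 of them, for Sst, Iapp and Calcb (NM_138513), fell at least 4-fold, which 0.518% of all probes did. On all 6 the highest ligation array lay below the lowest control array, a separation seen in 29.0% of all probes. The exact permutation p over the 8 samples was 0.0286 for each of the 6 (two-sided), the smallest that 4 against 4 samples can give. Scaling every array to the same spread of ratios kept the direction of these 6 probes but gave smaller log2 changes for Tac1 (-0.51), Calcb NM_138513 (-0.97), Calcb 701350462H1 (-0.75), Sst (-2.17) and Iapp (-2.40). In ganglia measured as a whole, fewer cells of a type and less RNA per cell cannot be told apart.

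**Figure D1:**
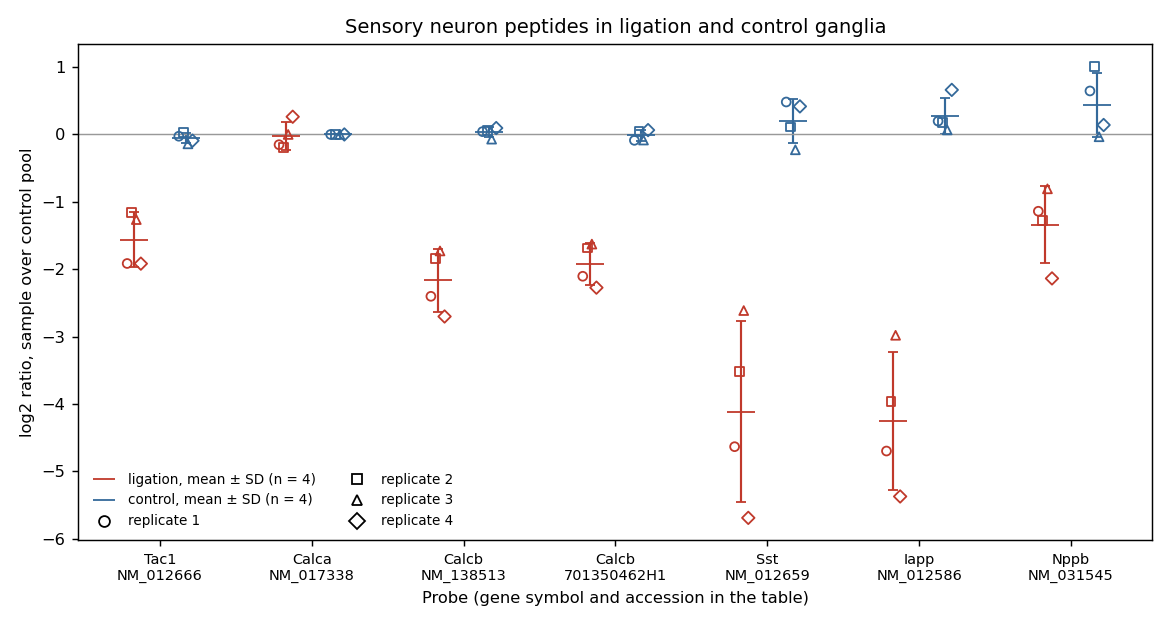
Log2 ratios of sample over control pool for the 7 peptide probes, with a symbol for each replicate, and the mean ± SD (n = 4) of ligation samples (red, left of each pair) and control samples (blue, right of each pair). The ligation samples lie below all control samples for 6 probes, reach -5.69 for Sst and -5.38 for Iapp, and overlap the control samples for Calca.

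Tac1 encodes the precursor of substance P and neurokinin A, transmitters of nociceptors, and substance P acts on the Tacr1 receptor. Its sample intensity was 6.79, 10.67, 9.69 and 6.52 on ligation arrays 1 to 4, against 23.25, 23.06, 21.16 and 24.56 on control arrays 1 to 4. All ligation values were thus under the lowest control value, and arrays 1 and 4 were lower than arrays 2 and 3. The log2 ratio averaged -1.56 ± 0.41 in ligation samples and -0.06 ± 0.07 in control samples (SD, n = 4 each). Tac1 fell by 1.51 on the log2 scale, or 2.84-fold (SE 0.19, adjusted p = 3.51e-04). Its spot was brighter than 95.4% to 97.6% of spots on the ligation arrays, against 99.6% to 99.9% on the control arrays. In 12 of 16 channels bright spots piled up at one intensity, from 17.77 to 30.09 by channel. On control array 2 Tac1 lay at that intensity (sample 23.06 against 23.04). Its sample intensity lay below it on control arrays 1 and 3 (pile-ups at 27.29 and 23.55). Its pool intensity did so on control array 4 (26.18 against 30.09). On ligation arrays 1 to 4 its pool intensities (25.62, 23.74, 23.27 and 24.64) lay above it (21.61, 19.86, 21.47 and 19.89). Whether the fall of Tac1 is understated was not tested.

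Calcb encodes the beta form of calcitonin gene-related peptide, a vasodilator released by nociceptor endings. Its probe NM_138513 had sample intensities of 1.14, 1.68, 1.8 and 0.92 on ligation arrays 1 to 4, against 5.24, 5.5, 5.05 and 6.12 on control arrays 1 to 4. The control arrays lay within 1.12-fold of each other after division by the pool, the ligation arrays within 1.96-fold. The log2 change was -2.20 ± 0.22 (SE), a 4.60-fold fall for Calcb (adjusted p = 8.70e-05). The other Calcb probe, 701350462H1, had sample intensities of 0.33, 0.41, 0.44 and 0.31 on ligation arrays and 0.64, 1.22, 1.18 and 1.14 on control arrays. The low first control value went with a low pool intensity of 0.68 on that array, and the log2 ratio there was -0.09. This probe fell 3.76-fold (log2 -1.91 ± 0.15, SE, adjusted p = 2.90e-05), so the 2 probes of Calcb moved the same way. The fall was larger on NM_138513 by 0.29 on the log2 scale (exact permutation p = 0.0286, adjusted p = 0.0353 over 21 pairs of probes).

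Calca, the neighbouring paralogue, is spliced either to calcitonin or to the alpha form of calcitonin gene-related peptide. The sources used here do not give which transcript its probe NM_017338 reads, nor whether it could bind Calcb RNA. The sample intensity was 0.09, 0.07, 0.06 and 0.06 on ligation arrays 1 to 4, against 0.04, 0.08, 0.06 and 0.04 on control arrays 1 to 4. These values overlap and are dim, above 17.9% to 29.5% of spots on the control arrays. The log2 ratio was exactly 0 on all 4 control arrays, since sample and pool had been rounded to the same value. The log2 change of -0.02 had a 95% interval of -0.25 to 0.21 and did not pass (adjusted p = 0.882). Rounding of the intensities alone allowed a change of -0.52 to 0.48.

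Sst and Iapp had larger falls than the other members. Somatostatin, the product of Sst, is an inhibitory peptide of a set of small neurons. Sst had sample intensities of 0.22, 0.56, 1.04 and 0.11 on ligation arrays 1 to 4, against 7.64, 7.45, 5.84 and 9.29 on control arrays 1 to 4. The ligation samples held 4.02%, 8.74%, 16.3% and 1.93% of the pool intensity, while the control samples held 85.4% to 140%. The log2 ratio averaged -4.12 ± 1.34 in ligation samples and 0.20 ± 0.33 in control samples (SD, n = 4 each). This is a 19.8-fold fall with a 95% interval of 7.06-fold to 55.7-fold (log2 -4.31 ± 0.63, SE, adjusted p = 7.30e-04).

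Iapp had sample intensities of 0.03, 0.05, 0.1 and 0.02 on ligation arrays 1 to 4, against 0.78, 0.79, 0.66 and 1.06 on control arrays 1 to 4. The ligation samples held 2.41% to 12.7% of the pool intensity. The log2 ratio averaged -4.26 ± 1.03 in ligation samples and 0.28 ± 0.26 in control samples (SD, n = 4 each). Iapp fell 23.1-fold, with a 95% interval of 10.4-fold to 51.2-fold (log2 -4.53 ± 0.49, SE, adjusted p = 1.39e-04). On ligation array 4 its intensity of 0.02 was above 3.03% of spots, near the bottom of the scale, and rounding allowed log2 ratios of -5.80 to -5.04 there. With 0.05 added to both intensities the log2 change of Iapp was -3.40 and that of Sst -4.06, so the size of the Iapp fall and its order with Sst depend on how dim intensities are treated. Their falls did not differ from each other beyond the spread (0.22 on the log2 scale, exact permutation p = 0.314, adjusted p = 0.347).

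Nppb encodes brain natriuretic peptide, which in mouse ganglia carries itch signals to the spinal cord. Its sample intensities were 0.49, 0.41, 0.56 and 0.25 on ligation arrays 1 to 4, against 1.33, 1.75, 0.83 and 0.97 on control arrays 1 to 4. The groups did not overlap, but they came close, the highest ligation log2 ratio being -0.81 and the lowest control log2 ratio -0.03. Nppb fell 3.43-fold, with a 95% interval of 1.97-fold to 5.98-fold (log2 -1.78 ± 0.34, SE, adjusted p = 0.00286). When every array was scaled to the same spread Nppb did not pass (adjusted p = 0.0762). It was the member that varied most among controls, with an SD of 0.48 on the log2 scale. That SD was larger than those of 97.3% of all probes, and those of Sst (95.2%) and Iapp (91.5%) were also high, whereas those of Tac1 (49.0%) and Calcb NM_138513 (47.4%) were typical. The authors' deposited table gave p-values for sample against pool within each array, and 4 of the 28 member values on control arrays had one under 0.01. These were Sst on control array 1 (0.00549), Iapp on control array 4 (5.70e-05) and Nppb on control arrays 1 (0.00792) and 2 (1.76e-04) in the authors' deposited table. Tested as a group against the pool, the controls passed for 0 of the 7 probes, against 0.661% of all probes (limma, adjusted p threshold). By the same test 0 had an unadjusted p under 0.05, the smallest being 0.109 for Nppb. Its SE takes in the ligation samples, which spread more than the controls on all 7 probes. A small difference of the controls from the pool could thus go unseen.

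**Figure D2:**
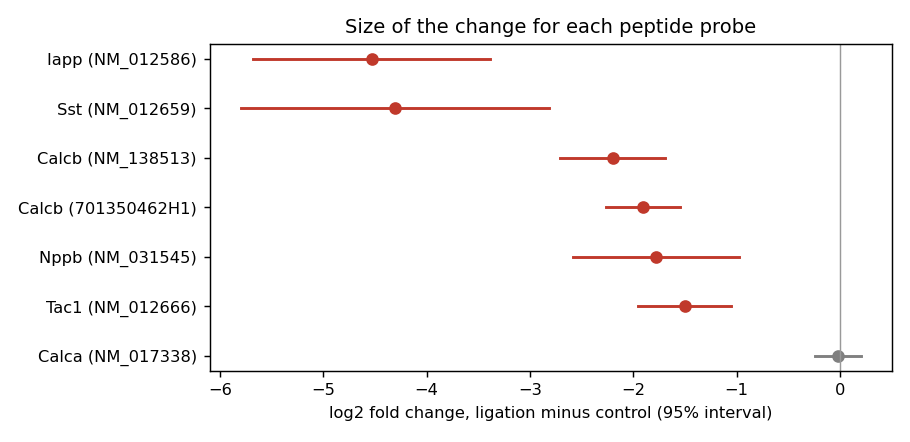
Log2 fold change of each peptide probe, ligation minus control, with its 95% interval (4 samples per group), ordered by size. Iapp (-4.53) and Sst (-4.31) lie apart from Calcb, Nppb and Tac1 (-2.20 to -1.51), and the interval of Calca includes 0.

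The 7 probes did not all change by the same amount. Differences in log2 change were tested for all 21 pairs of the 7 probes (exact permutation, Benjamini-Hochberg over the pairs), and 17 passed, each at the smallest p the design allows (0.0286, adjusted 0.0353). The 17 include every pair with the dim probe of Calca and the pair of the 2 Calcb probes. Since 2 probes of 1 gene passed too, a difference between probes cannot be told apart from one between genes. The fall of Sst was larger than that of Tac1 by 2.80 and than that of Nppb by 2.53 on the log2 scale. The fall of Iapp was larger than that of Tac1 by 3.02 and than that of Nppb by 2.75. With arrays scaled to the same spread the differences from Nppb were 0.55 for Sst and 0.78 for Iapp (adjusted p = 0.45 and 0.433). In that setting 12 pairs had the smallest exact permutation p and an adjusted p of 0.05, so 0 were under the threshold, while after quantile normalization 15 passed and Sst with Nppb did not (2.20, adjusted p = 0.0706). The 4 pairs that did not pass were Sst with Iapp and Nppb with Tac1 and with each Calcb probe (adjusted p = 0.48, 0.3 and 0.6). The part of the pile-up of bright spots in the differences of Tac1 from Calcb, Sst and Iapp was not tested.

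The depth of the falls differed between the ligation arrays in a shared order. Array 4 had the lowest log2 ratio for Tac1, both Calcb probes, Sst, Iapp and Nppb, although for Tac1 arrays 4 and 1 both rounded to -1.92. Array 1 came next for 5 of these 6 probes. For Nppb it was array 2 (-1.27) and then array 1 (-1.14). Array 3 had the highest log2 ratio for 5 of the 6 probes and array 2 for Tac1. The spread was widest for Sst, with log2 ratios of -4.64, -3.52, -2.61 and -5.69 on arrays 1 to 4, an 8.45-fold range, and for Iapp, with -4.70, -3.96, -2.98 and -5.38, a 5.25-fold range. The SD of Sst over the ligation arrays was larger than those of 99.96% of all probes.

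The order 4, 1, 2, 3 from the lowest up was found in some genes of several lists. It was present in 3 of 8 measured markers of peptidergic nociceptors, 3 of 9 of itch and non-peptidergic neurons and 1 of 10 general neuronal genes. Among other cell markers it was in 2 of 9 of satellite glia and Schwann cells, 2 of 11 of macrophages and 0 of 10 of muscle, fat, red cells and central glia. It was also in 2 of 16 peptide receptors, 1 of 16 processing genes, 1 of 6 peptidases and 1 of 5 axotomy-induced peptides. These counts take genes with a value on every ligation array. The share of all probes with this order was not counted. Scn11a and Scn10a, sodium channels of nociceptors, had log2 ratios of -4.29, -3.19, -2.67 and -5.07, and of -2.51, -2.04, -1.93 and -2.87 on ligation arrays 1 to 4. Syt1, the calcium sensor of synaptic vesicles, had -1.42, -1.52, -1.29 and -1.36. The median of 10 general neuronal genes was -0.70, -0.89, -0.89 and -0.71, with arrays 2 and 3 the lower. Gene by gene, array 4 was the lowest for 2 of these 10 and the highest for 3. The median of the itch and non-peptidergic list was -0.92, -0.84, -0.92 and -0.79, with array 4 the highest. Gene by gene, however, array 4 was the lowest for 5 of the 9 genes of that list and the highest for 2. Among the 116 probes that fell at least 4-fold, 65.5% had their lowest ligation value on array 4 and 25.9% on array 1. Among 759 that fell at least 2-fold and had a value on every ligation array, these shares were 39.3% and 24.4%. Macrophage markers had medians of 2.39, 2.33, 2.49 and 2.39 on the same arrays. The part of neuron content, dissection or RNA quality in this order was not tested, and with 4 arrays no correlation is given.

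**Figure D3:**
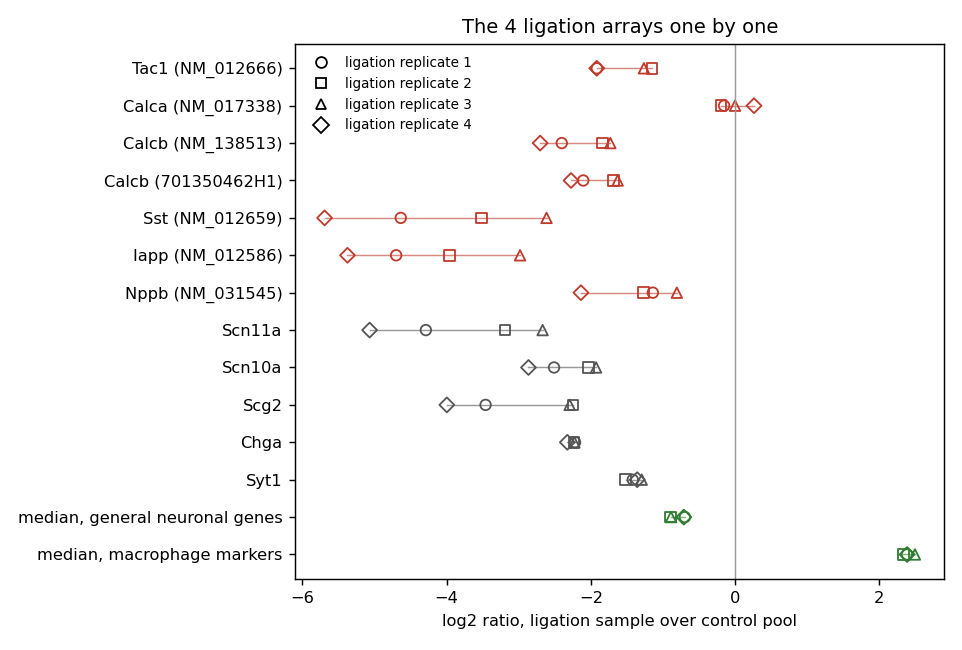
Log2 ratio of each ligation sample over the control pool, with a symbol for each replicate, for the 7 peptide probes (red), other single genes (grey) and the medians of marker lists (green). Replicate 4 is lowest and replicate 1 next for both Calcb probes, Sst, Iapp, Scn11a, Scn10a and Scg2, while Chga, Syt1 and the general neuronal median spread little.

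The genes whose pattern was most like each member's were named by the root mean square difference of log2 ratios over the 8 arrays, with 1 probe a gene. For Sst they were Iapp (0.29), Scn11a (0.34) and Chrna3, a nicotinic receptor subunit (0.34), and for Iapp they were Sst (0.29), Scn11a (0.41) and Chrna3 (0.44). The 2 peptide genes were thus each other's nearest gene among 10628 compared. The measure depends on the size of a fall, and theirs ranked 1 (Iapp) and 2 (Sst) among all probes. By Pearson correlation over the 8 arrays Scn11a was closer to Sst (0.996) and to Iapp (0.994) than they were to each other (0.993). For Calcb NM_138513 they were Scn10a (0.14), Drgx, a homeodomain factor of sensory neurons listed as Prrxl1 (0.14), and Dpyd (0.15). For Tac1 they were Fstl1 (0.14), Fgf13 (0.17) and Tspan8 (0.18), with log2 changes of -1.60, -1.66 and -1.66. For Nppb they were Mgam (0.32), Nrarp (0.37) and Sult1d1 (0.37). Genes near the flat, dim probe of Calca carry no pattern and are not named.

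The receptors of these peptides, which in a ganglion can sit on neurons, vessels or immune cells, moved in both directions. Of 16 measured receptor genes, 5 rose and 4 fell, near the shares of all 10746 genes with 1 probe each (30.2% higher and 35.9% lower), and the median log2 change was 0.15, against -0.05 over all genes. The receptor of calcitonin gene-related peptide is made of Calcrl and Ramp1, and both rose. Ramp1 had log2 ratios of 1.17, 1.50, 1.40 and 1.51 on ligation arrays, against -0.17, -0.74, -0.32 and -0.19 on control arrays, a 3.37-fold rise (log2 1.75 ± 0.14, SE, adjusted p = 3.31e-05). Calcrl rose 1.81-fold (adjusted p = 4.32e-05) on the brighter of 2 probes, the other not passing, and did not pass with arrays scaled to the same spread (adjusted p = 0.085). Ramp2, which turns Calcrl into an adrenomedullin receptor, rose 1.18-fold with overlapping groups (adjusted p = 0.0241), but not without ligation array 2, 3 or 4 (adjusted p = 0.0613, 0.0631 and 0.0502) or control array 2 or 3 (0.0597 and 0.0634). Nor did it pass after quantile normalization (0.194) or with arrays scaled to the same spread (0.255). Ramp3 did not pass (log2 -0.18, adjusted p = 0.108) unless control array 2 was left out (-0.24, adjusted p = 0.046).

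Somatostatin receptors differed among themselves. Sstr2 fell 3.55-fold (log2 -1.83 ± 0.15, SE, adjusted p = 3.11e-05) and Sstr1 fell 2.43-fold (log2 -1.28 ± 0.10, adjusted p = 2.40e-05). Sstr2 had 2 probes, of which 1 passed. Sstr3 rose 3.18-fold (log2 1.67 ± 0.22, adjusted p = 4.15e-04), from a dim probe for which rounding allowed 1.29 to 2.05. Sstr4 and Sstr5 did not pass. The substance P receptor Tacr1 was dim (mean intensity 0.025 in ligation samples and 0.02 in control samples) and did not pass (log2 0.29, adjusted p = 0.439). Tacr3 passed as lower (log2 -1.07, adjusted p = 0.0162), but its groups overlapped, rounding alone allowed -2.44 to 0.38, and it did not pass after quantile normalization (-0.53, adjusted p = 0.349). Of the natriuretic peptide receptors, Npr1, the receptor that Nppb activates, rose 1.74-fold (adjusted p = 5.45e-05), Npr2 fell 1.29-fold (adjusted p = 5.78e-05) and Npr3 did not pass.

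Genes that process and store peptides fell more often than not. Of 17 measured genes 10 fell (58.8%, against 35.9% of all genes) and 4 rose (23.5%, against 30.2%), and the median log2 change was -0.60. Scg2, a granin of dense-core vesicles, fell most, 8.24-fold (log2 -3.04 ± 0.40, SE, adjusted p = 4.18e-04). Its mean control intensity, 20.78, lay below the pile-ups of bright spots on control arrays 1 to 3 (27.29, 23.04 and 23.55). Whether the fall of Scg2 is understated was not tested. Its log2 ratios were -3.46, -2.25, -2.29 and -4.00 on ligation arrays, against -0.06 to 0.16 on control arrays, and arrays 4 and 1 were the lowest, as for Sst and Iapp. Chga, another granin, fell 4.96-fold with ligation arrays between -2.33 and -2.22. The other falls were in Cadps, which primes dense-core vesicles (3.26-fold), Chgb (2.92-fold), the convertase Pcsk2 (2.42-fold), its chaperone Scg5 (2.39-fold), Scg3 (1.69-fold), Cadps2 (1.58-fold), Pcsk1n (1.52-fold) and Pam, the amidating enzyme (1.09-fold, but 0.01 higher on the log2 scale in the sample channel alone). Pam had 5 probes, of which 3 passed. Pcsk1, the other main convertase, and Cpe, the carboxypeptidase that trims the cut peptides, did not pass (log2 -0.11 and -0.14). Cpe had no value on ligation array 4 and control array 2, and it passed without control array 4 (-0.24, adjusted p = 0.024).

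Vgf, a neurotrophin-induced granin, went against this trend and rose 3.44-fold (log2 1.78 ± 0.07, SE, adjusted p = 1.26e-06), though its ligation intensity lay in the range where bright spots piled up. Slc18a2, the vesicular monoamine transporter, rose 3.55-fold, Ptprn, a granule membrane protein, 1.67-fold and Cpd, a carboxypeptidase, 1.21-fold, a call lost after quantile normalization (adjusted p = 0.0668). Of 6 genes for peptidases that degrade peptides outside cells, Anpep (3.80-fold) and Dpp4 (3.06-fold) rose, a share of 33.3% near the 30.2% of all genes, and the other 4 did not pass, among them Mme, neprilysin (log2 -0.04, adjusted p = 0.711), which cleaves substance P.

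**Figure D4:**
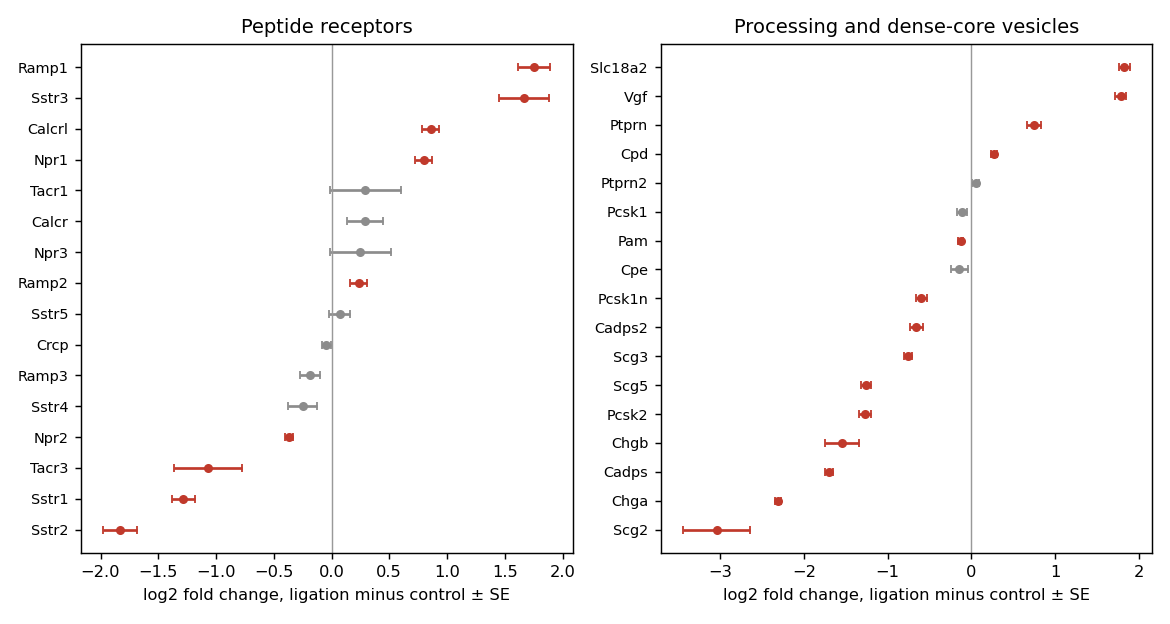
Log2 fold change, ligation minus control, ± SE (4 samples per group, 3 for Cpe) for 16 measured peptide receptor genes (left) and 17 measured processing and dense-core vesicle genes (right). Red points passed the test and grey points did not. Ramp1 (1.75) and Sstr2 (-1.83) mark the ends of the receptors, and Slc18a2 (1.83) and Scg2 (-3.04) those of the processing genes.

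Markers of the neurons that carry these peptides fell in larger shares than the 35.9% of all genes. Of 8 measured markers of peptidergic nociceptors 6 fell and 1 rose (median -1.03), with Scn10a down 5.48-fold and Gfra3 up 1.41-fold, a call lost after quantile normalization (adjusted p = 0.269). Gfra3 had 2 probes, of which 1 passed. Of 9 measured markers of itch and non-peptidergic neurons 7 fell and 1 rose (median -0.93), with Plcb3 down 1.22-fold and Gfra1 up 2.73-fold with its ligation intensity in the range of the pile-up. Plcb3 did not pass in the sample channel alone (adjusted p = 0.186). Of 10 general neuronal genes 9 fell and 0 rose (median -0.82), among them Syt1 (3.05-fold) and Isl1 (2.43-fold). Tubb3, a tubulin of neurons, was the gene of that list with the smallest change (log2 0.01, adjusted p = 0.927). Every peptide probe that passed, from Tac1 (-1.51) to Iapp (-4.53), thus fell by more than the median of each list. Those medians come from other probes, and the difference was not tested. Of 5 measured peptides known to be induced by axotomy 4 rose, with Npy up 20.5-fold, Gal up 7.86-fold and Cck up 1.57-fold. The mean ligation intensity of Gal, 23.10, lay above the pile-ups of those sample channels (17.77 to 21.23). Crh had a log2 change of -2.18 (adjusted p = 7.07e-04), which was 0.39 with arrays scaled to the same spread.

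Markers of other cells are set against the 30.2% of all genes that rose and the 35.9% that fell. Macrophage markers rose in 10 of 11 measured genes (median 2.67), with Trem2 up 10.1-fold and C1qb up 6.38-fold, and medians of 2.33 to 2.49 on ligation arrays, against -0.37 to -0.13 on control arrays. Of 11 measured markers of satellite glia and Schwann cells 3 rose (27.3%) and 4 fell (36.4%), shares near those of all genes (median 0.03), with Gfap up 7.83-fold and Fabp7 down 2.79-fold. Sox10 was up 1.36-fold, but its log2 change was -0.06 after quantile normalization, and Fabp7 did not pass with arrays scaled to the same spread (adjusted p = 0.171). Of 10 measured markers of muscle, fat, red cells and central glia 1 rose and 3 fell (median -0.09). Their median log2 ratio lay below the pool in both groups, at -1.97 to -1.64 on ligation arrays and -1.05 to -0.80 on control arrays. The muscle genes had the lowest control means of that list. Aqp4 was down 2.94-fold but did not pass after quantile normalization (adjusted p = 0.221). Hbb did not pass on its brightest probe (log2 -0.01, adjusted p = 0.979), and 1 of its 29 probes passed. The part of these shifts in cell markers in the peptide falls was not tested.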

How the data were processed

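Two-colour arrays were read from 100 ng of RNA amplified in 2 rounds, per the labels' protocols, and the submitters' processing notes name Agilent Feature Extraction 8.5.1.1. The labels call the 4 samples of a group biological replicates. The deposited table gave a relative linear intensity for each channel and the authors' p-value for both channels of an array, per the file headers. How background and normalization were treated is not given in the sources used here. Log10 ratios in the authors' deposited series matrix equalled those of the intensities to within 0.005 for 100% of spots. No value column lacked a sample.

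Log2 ratios of sample over pool had a median of 0 on every array and were not scaled further. Spots of a probe were averaged. Probes valued on 2 or more arrays in both groups (22379 of 22491) were fitted with limma 3.58.1 in R 4.3.3 (lmFit, eBayes, two-sided), and a probe passed below an adjusted p of 0.05 (Benjamini-Hochberg). The fit takes 1 spread per probe for both groups, while the peptide probes that fell spread more in ligation samples. The fit was tested on simulated data that gave both groups the control spread of each probe. That test does not cover the wider ligation spread of the peptide probes. Exact permutation tests used scipy 1.17.1 with numpy 2.4.6, tables pandas 2.3.3 in Python 3.11.15, and figures matplotlib 3.10.9. Rounding bounds moved each intensity by 0.005, and by less below 0.01. Other genes were named by accession, symbol or synonym in a RefSeq table of GRCr8 and took their brightest probe. The median standard error of a log2 change was 0.063, and the number of arrays limits the precision. Ligation arrays had 23403 to 23412 spots with a value and median sample intensities of 0.21 to 0.22, against 23446 to 23504 spots and 0.17 to 0.20 on control arrays.

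The members, lists and tests were chosen with earlier results of these data known. Named were all members, any gene of the receptor, processing and peptidase lists, the 2 genes of each other list with the smallest adjusted p in each direction and the 1 with the smallest change (some of these are not reported here), and the 3 nearest genes of each member. Alternatives changed the scaling, the channel, an offset of 0.05, the rounding, a filter on dim probes, the moderation, the replicate block, the probe of a gene and each replicate in turn.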

Additional observations from a re-analysis of the deposited data

Results flagged for a closer look

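Of 128 groups of 4 arrays examined among the genes printed here, 10 had a highest or lowest array whose gap to the nearest other array took up more of the whole range than Dixon's 95% critical value allows, where chance gives about 1 in 20. None was a peptide probe. For Sstr2 (a share of 1) and Chga (0.853) it was ligation array 4, with log2 ratios of -1.74 and -2.33. On the control arrays it was array 2 for Calcrl (0.839), Tacr1 (1) and Gfap (0.869), array 4 for Tacr3 (1), Cadps2 (0.928) and Gfra3 (0.847), array 3 for Sstr1 (0.974) and array 1 for Cck (1). Where the share was 1, the other 3 arrays had equal log2 ratios.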

How the results depend on the processing

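The 6 peptide probes that passed kept their direction in all 16 alternatives run for each. For most of these the direction was fixed in advance. The filter, the moderation and the replicate block leave their log2 changes as they are, and leaving out 1 array cannot turn groups that do not overlap. The 6 probes stayed past the threshold in all 16, except Nppb when arrays were scaled to 1 median absolute deviation. Nppb was then lower by 1.62 on the log2 scale but did not pass (adjusted p = 0.0762). That scaling left 0 of 21 pairs of peptide probes past the threshold, against 17 without it. It gives all arrays the same spread, shrank Sst to -2.17 and Iapp to -2.40, and called 5274 probes in all, while quantile normalization called 6365, the filter on dim probes 8559 of 11189 tested, and the fit without these settings 13105. Calca, which did not pass, was 0.48 higher with every intensity moved by 0.005 against the change (adjusted p = 0.0122). Leaving out each replicate in turn moved Sst between -4.81 and -3.78, Iapp between -4.96 and -4.16, Nppb between -1.96 and -1.51 and Tac1 between -1.64 and -1.39. Of 51 other genes printed as called, 38 were called in the same direction in every alternative. Under scaling between arrays Sox10 turned to -0.06 (quantile) and -0.16 (median absolute deviation) and Crh to 0.39 (median absolute deviation), and Calcrl, Ramp2, Tacr3, Cpd, Gfra3, Fabp7, Aqp4 and Sult1d1 lost their call under at least 1 of both. Pam and Plcb3 lost theirs in the sample channel alone and Cadps2 under rounding (adjusted p = 0.071), where Tacr3 and Sult1d1 turned to 0.38 each. The cause was not tested. Replicate numbers are shared by the groups, but correlations of deviations at equal numbers were 0.11, 0.07, 0.14 and 0.16, so they were not taken as pairs. Each ligation sample correlated best with its own number, a hint from the data only. The authors' log10 table, a copy, was not run. With the replicate block, Ramp2 (adjusted p = 0.0616) and Tacr3 (0.0569) did not pass, and 12577 probes and 6 of the 7 peptide probes passed. The probes past the median intensity hold all peptides but Calca, and dim probes are limited by rounding.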
